A study of Mus musculus with 12 samples.

Results

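The tricarboxylic acid (TCA) cycle enzymes described here are the products of 9 genes, Cs, Idh2, Idh3a, Ogdh, Dlst, Sucla2, Suclg1, Fh1 and Mdh2. They were taken by NCBI Gene identifier from a table of 18079 genes measured in the mouse heart, and all 9 were present and expressed highly enough to be tested. Left ventricular muscle of 12 male C57BL/6 mice was sequenced 4 weeks after descending aortic banding (AB), which puts a pressure load on the left ventricle, or after a sham operation. Operations were done at 8 weeks of age and hearts were taken at 12 weeks. Mice received either hispidulin, a plant flavone, injected into the peritoneum at 20 mg/kg/day, or the solvent DMSO alone, which gave 2 sham groups (DMSO+Sham and Hispidulin+Sham) and 2 banded groups (DMSO+AB and Hispidulin+AB) with 3 mice in each. Values are FPKM, reads scaled to exon length and library size, a level per transcript length that can be set side by side between genes.

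The cycle runs in the mitochondrial matrix. It condenses acetyl-CoA from fatty acids, glucose and amino acids with oxaloacetate and oxidizes the product stepwise, handing electrons to the respiratory chain as NADH and FADH2. Heart muscle is packed with mitochondria and depends on mitochondrial oxidation for most of its ATP, and the enzymes are encoded in the nucleus and imported. Citrate synthase (Cs) opens the cycle, isocitrate dehydrogenases and the 2-oxoglutarate dehydrogenase complex carry out its oxidative decarboxylations, succinyl-CoA synthetase makes ATP or GTP, and fumarase (Fh1) and malate dehydrogenase (Mdh2) return the carbon to oxaloacetate.

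The labelled tissue carried its defining transcripts. Summed over 10 cardiomyocyte genes, FPKM lay between 39526 and 57456 per mouse, which was 7.34% to 10.4% of all FPKM. Atrial markers (Myl7, Sln and Myl4) summed to 774 FPKM in Hispidulin+Sham mouse 3, 172 in DMSO+AB mouse 2 and 91.0 in Hispidulin+AB mouse 3, and to between 2.53 and 40.0 in the other mice, so results are also given without these 3 mice, a choice made after the values were seen. DMSO+Sham mouse 3 had the lowest cardiomyocyte sum of all 12 mice and, at 285.5 FPKM, the highest macrophage sum (123 to 243 in the others). Banding was visible in Nppb and Acta1, a natriuretic peptide and a fetal actin of the loaded ventricle, which rose by 3.08 and 4.12 on the log2 scale in DMSO+AB against DMSO+Sham (limma, adjusted p = 0.0036 and 0.0032). Of other load genes looked at, Nppa rose by 4.54 (limma, adjusted p = 0.012) and Myh7 did not pass (1.55, adjusted p = 0.18). DMSO+AB mouse 1 had 680 FPKM of Nppa, against 6043 and 5738 in the other DMSO+AB mice. Depth is unknown, since FPKM alone do not give it. Tests across genes used limma on log2(FPKM + 1) with all 12 mice in 1 model. Benjamini-Hochberg adjustment was over all 11664 genes tested, and a gene was called at an adjusted p under 0.05. Fold changes are on this scale.

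In hearts without a pressure load and without drug, transcripts of the cycle were abundant and spanned a wide range of levels. Together the 9 enzymes took 0.998% ± 0.0538 (SD, n = 3) of all FPKM in DMSO+Sham mice. Idh2 was the most abundant at 1456 ± 54.9 FPKM, followed by Mdh2 at 1158 ± 95.1, Ogdh at 721 ± 86.3 and Cs at 636 ± 68.0. Fh1 came next at 337 ± 13.9. Sucla2, Suclg1, Idh3a and Dlst formed the lowest tier, with means between 273 and 292 FPKM. Idh2 and Mdh2 did not overlap between mice of this group, nor did Mdh2 and Ogdh, whereas Ogdh overlapped Cs and the members of the lowest tier overlapped each other. The same first 4 places, in the same order, were found in each of the 4 groups.

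After AB in DMSO-treated mice most of these transcripts were lower on average, by modest amounts, and none passed the test. Of the 9, 8 had a lower mean, as did 55.8% of all genes tested, and the median log2 fold change was -0.24 against -0.035 over all genes tested. Without DMSO+Sham mouse 3 all 9 were lower, with a median of -0.33 and 0 called. At an adjusted p under 0.05, 0 of 9 were called by limma, while 5.21% of all genes tested were called. Without adjustment, 5 had a p under 0.05 and all 5 were lower (Cs, Idh2, Sucla2, Suclg1 and Fh1), against 11.1% of all genes that were lower at that p. Idh2, Suclg1 and Fh1 had every DMSO+AB mouse below every DMSO+Sham mouse, which 10.8% of all genes tested also showed.

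Hispidulin-treated mice also had lower means after AB, and averaging over both treatments gave 1 call. For Hispidulin+AB against Hispidulin+Sham, all 9 means were lower (54.9% of genes tested) with a median of -0.14 (all genes -0.020). There 0 were called by limma and 0 had an unadjusted p under 0.05, where 0% and 7.26% of all genes tested did. Cs, Suclg1, Fh1 and Mdh2 did not overlap between those groups, a pattern shared by 11.8% of genes tested. When AB was compared with Sham over both treatments, 6 mice against 6, all 9 means were lower (55.8% of genes tested) with a median of -0.22 against -0.026 over all genes. Suclg1 alone was called, where 7.39% of all genes tested were called and 3.87% were called lower. Cs, Idh2, Idh3a, Suclg1 and Fh1 had an unadjusted p under 0.05, and 12.9% of genes tested were lower at that p. With the replicate number as a block, Idh2 was called (limma, adjusted p = 0.047) and Suclg1 was not (adjusted p = 0.051). The 8 enzymes other than Dlst kept a lower mean in this comparison under every alternative tried, including both other scalings. Without the 3 mice of high atrial markers the median was -0.23 with DMSO and -0.18 averaged, with 0 enzymes called in either. In whole muscle, fewer cells of a type and less RNA per cell cannot be told apart.

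**Figure D1:**
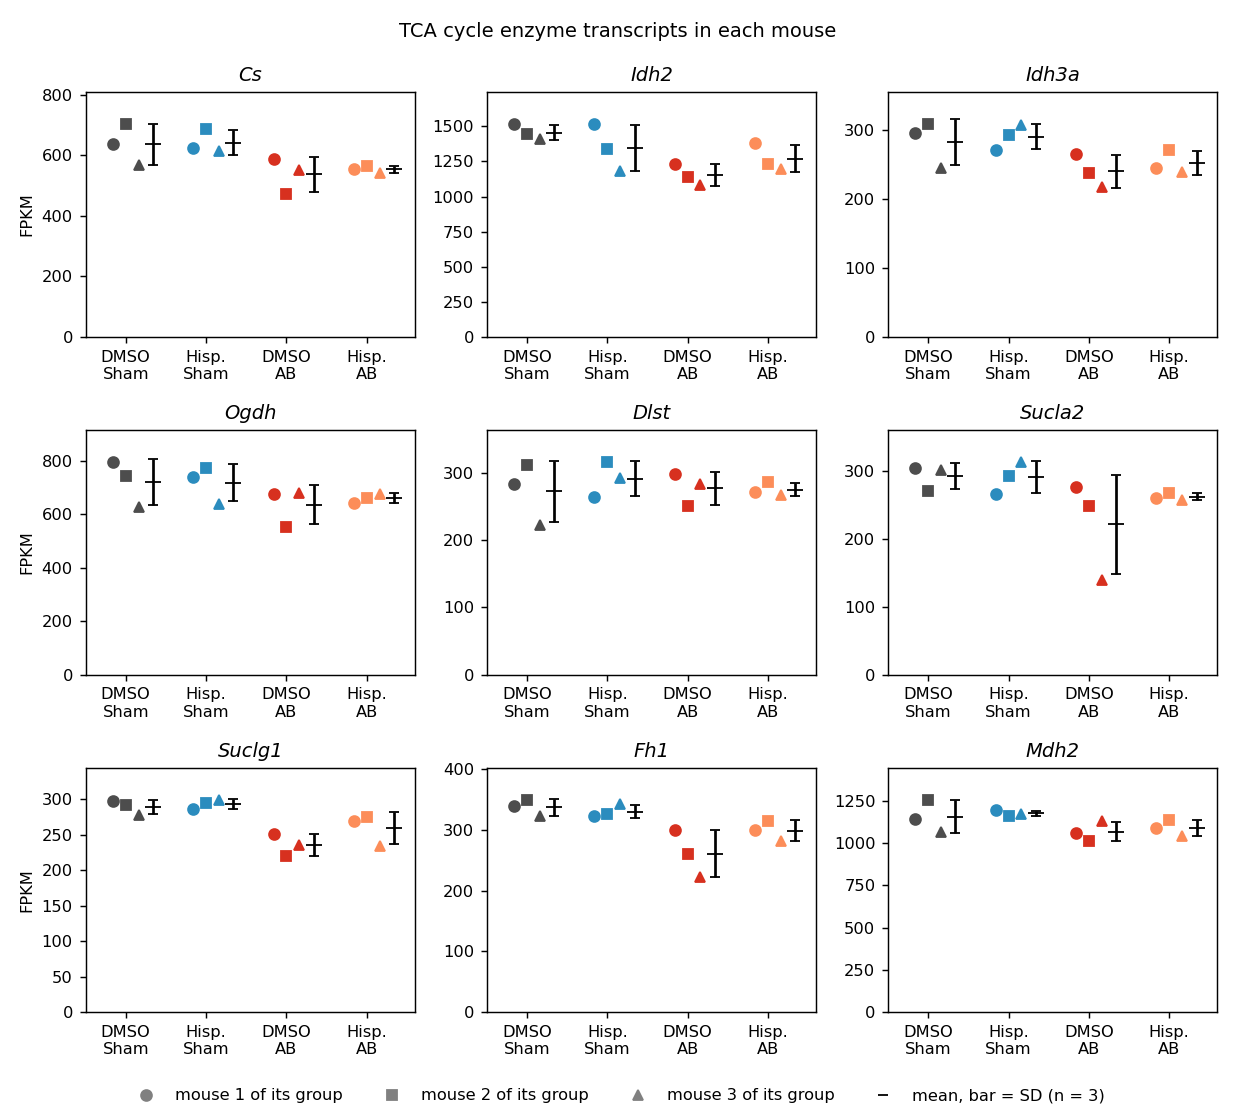
FPKM of the 9 enzymes (vertical axes, each starting at 0) in the 12 mice, with the 3 mice of a group as separate points and the group mean with its SD beside them. Suclg1 and Fh1 have all 6 banded mice below all 6 sham mice, and Sucla2 has 1 DMSO+AB mouse at 139, far under the rest.

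Stretches of 250 bases upstream of the transcription start are shown for Suclg1 and Fh1, whose banded and sham mice did not overlap, and for Dlst, whose mean hardly moved. They are RefSeq sequences of build GRCm38.p6, written in the direction of the gene, with capitals marking matches to any of 6 motifs. Suclg1 lies downstream of chr6:73248255-73248504 on the plus strand, Fh1 of chr1:175625636-175625885 on the minus strand and Dlst of chr12:85110583-85110832 on the plus strand.
Suclg1: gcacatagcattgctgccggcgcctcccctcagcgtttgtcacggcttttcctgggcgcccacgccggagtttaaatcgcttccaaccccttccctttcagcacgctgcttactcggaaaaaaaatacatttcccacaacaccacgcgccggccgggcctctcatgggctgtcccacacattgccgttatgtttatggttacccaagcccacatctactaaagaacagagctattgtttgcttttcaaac
Fh1: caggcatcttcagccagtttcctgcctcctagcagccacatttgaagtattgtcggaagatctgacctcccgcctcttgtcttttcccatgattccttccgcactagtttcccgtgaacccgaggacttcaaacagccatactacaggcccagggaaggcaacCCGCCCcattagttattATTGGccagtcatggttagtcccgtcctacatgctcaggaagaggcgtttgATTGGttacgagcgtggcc
Dlst: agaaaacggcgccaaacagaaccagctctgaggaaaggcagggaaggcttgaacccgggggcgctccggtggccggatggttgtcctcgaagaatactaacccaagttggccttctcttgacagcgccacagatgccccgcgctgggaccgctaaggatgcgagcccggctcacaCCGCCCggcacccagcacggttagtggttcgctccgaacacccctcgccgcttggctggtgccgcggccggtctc

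Windows were found for the members other than Idh3a, 13 in all, of which 6 belong to alternative starts of Ogdh and overlap in part. Motifs were searched as exact letters on both strands. The extended response element of estrogen-related receptors (ERR), TNAAGGTCA, was in 0 of the 13 windows, against 0.643% of the windows of genes tested. GCATGCGC of nuclear respiratory factor 1 (NRF1) was found in 2 overlapping windows of Ogdh, against 4.21%. CCGGAAGT of GABPA and AAGATGGC of YY1 were in none of the 13, against 5.63% and 1.90%. A GC box, GGGCGG, was in 8 of the 13 windows and in at least 1 window of 7 of the 8 genes, all but Suclg1, against 57.5% of tested windows, and CCAAT was in 7 windows of 4 genes (Cs, Idh2, Ogdh and Fh1), against 34.7%. Matches of different motifs did not overlap each other. The GC box and CCAAT were added after the first 4 motifs had been searched, and a match is a run of letters, not a shown binding site.

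Cs, which joins acetyl-CoA to oxaloacetate, had 638, 703 and 567 FPKM in the DMSO+Sham mice and 623, 688 and 615 in the Hispidulin+Sham mice. Banded mice had 587, 473 and 550 FPKM with DMSO and 555, 564 and 541 with hispidulin. The hispidulin-treated banded mice all lay under the sham mice of either treatment, and DMSO+AB mouse 1 overlapped the lowest sham mouse. Cs was 15.6% lower in DMSO+AB than in DMSO+Sham (log2 fold change -0.24, SE 0.10, adjusted p = 0.21 by limma) and -0.21 on the log2 scale (SE 0.10, adjusted p = 0.71) with hispidulin. The change with DMSO ranged from -0.32 without DMSO+Sham mouse 3 to -0.16 without DMSO+AB mouse 2. Averaged over treatments the change was -0.23 (SE 0.074, adjusted p = 0.084). Reads of Cs and of Csl, a near copy of its coding sequence that was not analysed here, may not be told apart.

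Isocitrate is oxidized by the NAD+-dependent enzyme, whose catalytic subunit is Idh3a, and by the NADP+-dependent Idh2, which also supplies reducing power against peroxides. Idh2 had 1516, 1443 and 1409 FPKM in DMSO+Sham and 1234, 1142 and 1079.8 in DMSO+AB, and these groups did not overlap. With hispidulin the sham mice spread from 1183 to 1514 FPKM and the banded mice, at 1379, 1234 and 1198, lay inside that range. The fold change was -0.34 (SE 0.10, adjusted p = 0.081 by limma) with DMSO and -0.077 (SE 0.10, adjusted p = 0.94) with hispidulin. The difference between these 2 changes was 0.26 (95% confidence interval -0.055 to 0.58), so it was not separated from 0.

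Idh3a had 294, 308 and 244 FPKM in DMSO+Sham and 271, 292 and 307 in Hispidulin+Sham. After AB it had 265, 237 and 217 FPKM with DMSO and 245, 271 and 239 with hispidulin. The third DMSO+Sham mouse lay among the banded mice, and the groups overlapped for both treatments. The change averaged over treatments was -0.22 (SE 0.078, adjusted p = 0.12 by limma). Idh3b and Idh3g, the regulatory partners in the same enzyme, were more abundant, and Idh3g fell by 0.34 in DMSO+AB against DMSO+Sham (adjusted p = 0.041 by limma) and by 0.28 in the averaged comparison (adjusted p = 0.019). Idh3b changed by -0.36 in DMSO-treated mice (adjusted p = 0.057) and by -0.23 averaged (adjusted p = 0.064). Of the FPKM of the 3 subunits together, Idh3a made up 18.5% to 23.8% in every mouse.

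Ogdh is the decarboxylating subunit and Dlst the succinyl-transferring core of the 2-oxoglutarate dehydrogenase complex. Ogdh had 796, 742 and 627 FPKM in DMSO+Sham, 738, 774 and 639 in Hispidulin+Sham, 675, 553 and 679 in DMSO+AB and 640.25, 662 and 676 in Hispidulin+AB. The groups overlapped throughout, and the averaged change was -0.15 (SE 0.082, adjusted p = 0.31 by limma). Ogdhl, a gene named for its likeness to Ogdh and outside the lists, had a mean of 66.0 FPKM over all mice. It fell by 0.86 with DMSO (SE 0.21, adjusted p = 0.036 by limma), where 2.71% of genes tested were called lower. Averaged over treatments Ogdhl changed by -0.47 (adjusted p = 0.073). Dlst had 284, 311 and 223 FPKM in DMSO+Sham, 265, 316 and 292 in Hispidulin+Sham, 298, 249.9 and 284 in DMSO+AB and 272, 286 and 267 in Hispidulin+AB. It was the single member whose mean was not lower after AB with DMSO, at 0.034 (SE 0.12, adjusted p = 0.91), and its lowest mouse of all 12 was a sham mouse. Its averaged change was -0.023 (95% confidence interval -0.21 to 0.17) and turned positive under some alternatives. Dld, the third subunit, which is shared with pyruvate dehydrogenase, changed by -0.30 with DMSO (SE 0.19, adjusted p = 0.40).

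Succinyl-CoA synthetase pairs the common subunit Suclg1 with either Sucla2, which makes ATP, or Suclg2, which makes GTP. Suclg1 had 298, 292 and 278 FPKM in DMSO+Sham and 286, 296 and 299.8 in Hispidulin+Sham. After AB it had 251, 220.5 and 236 FPKM with DMSO and 269, 275 and 234 with hispidulin. The highest banded mouse, at 275 FPKM, lay just under the lowest sham mouse at 278, a separation of 6 against 6 that 2.80% of all genes tested showed in this direction. Suclg1 was -0.30 on the log2 scale with DMSO (SE 0.088, adjusted p = 0.074 by limma) and -0.18 with hispidulin (SE 0.088, adjusted p = 0.70). Leaving out 1 mouse moved the change with hispidulin between -0.23 and -0.11. Averaged over treatments Suclg1 fell by 0.24 (SE 0.062, adjusted p = 0.037), or 15.3%. That call held in 8 of 22 alternatives, and without the 3 mice of high atrial markers the change was -0.17 (adjusted p = 0.30). Leaving out any of the 12 mice other than DMSO+Sham 2, DMSO+Sham 3 and DMSO+AB 1 also ended the call, with adjusted p between 0.052 and 0.095.

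Sucla2 had 304, 270.0 and 301 FPKM in DMSO+Sham and 266, 293 and 313 in Hispidulin+Sham. After AB it had 276, 249 and 139 FPKM with DMSO and 261, 267 and 257 with hispidulin. A single mouse, the third of DMSO+AB, set the mean of its group apart. The change with DMSO was -0.46 (SE 0.20, adjusted p = 0.22 by limma) with that mouse and -0.15 (adjusted p = 0.43) without it. Suclg2, the least abundant of the 3 subunits, fell by 0.43 with DMSO (SE 0.11, adjusted p = 0.046) and by 0.33 averaged over treatments (SE 0.078, adjusted p = 0.027).

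DMSO+AB mouse 3 did not have low levels throughout the cycle. Against the mean of the other 2 mice of its group it differed by -0.91 on the log2 scale for Sucla2, -0.84 for Dld, -0.42 for Sdha, -0.33 for Fh1 and -0.31 for Idh3b. In the same mouse Sdhb was 0.21 higher, Ogdh 0.15 and Mdh2 0.12. Of all genes tested, 1.57% deviated downward in that mouse by at least as much as Sucla2. What sets these genes apart in this mouse was not tested.

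Fh1, which hydrates fumarate to malate, had 339, 349.9 and 322 FPKM in DMSO+Sham and 322, 325 and 342 in Hispidulin+Sham. Banded mice had 299.95, 260.5 and 223 FPKM with DMSO and 299, 315 and 281 with hispidulin. All 6 banded mice lay below all 6 sham mice, with the nearest 2 at 315 and 322. The fold change was -0.38 with DMSO (SE 0.11, adjusted p = 0.061 by limma), -0.14 with hispidulin (SE 0.11, adjusted p = 0.86) and -0.26 averaged (SE 0.074, adjusted p = 0.054). Of the 9 it had the lowest adjusted p in DMSO-treated mice.

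Mdh2, which regenerates oxaloacetate, had 1146, 1258 and 1069 FPKM in DMSO+Sham and 1194, 1161 and 1172 in Hispidulin+Sham. After AB it had 1062, 1014 and 1129 FPKM with DMSO and 1093, 1136 and 1042 with hispidulin. The hispidulin-treated groups did not overlap and the DMSO-treated groups did. Its averaged change was small, -0.11 (SE 0.059, adjusted p = 0.29 by limma) with a 95% confidence interval of -0.24 to 0.018.

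**Figure D2:**
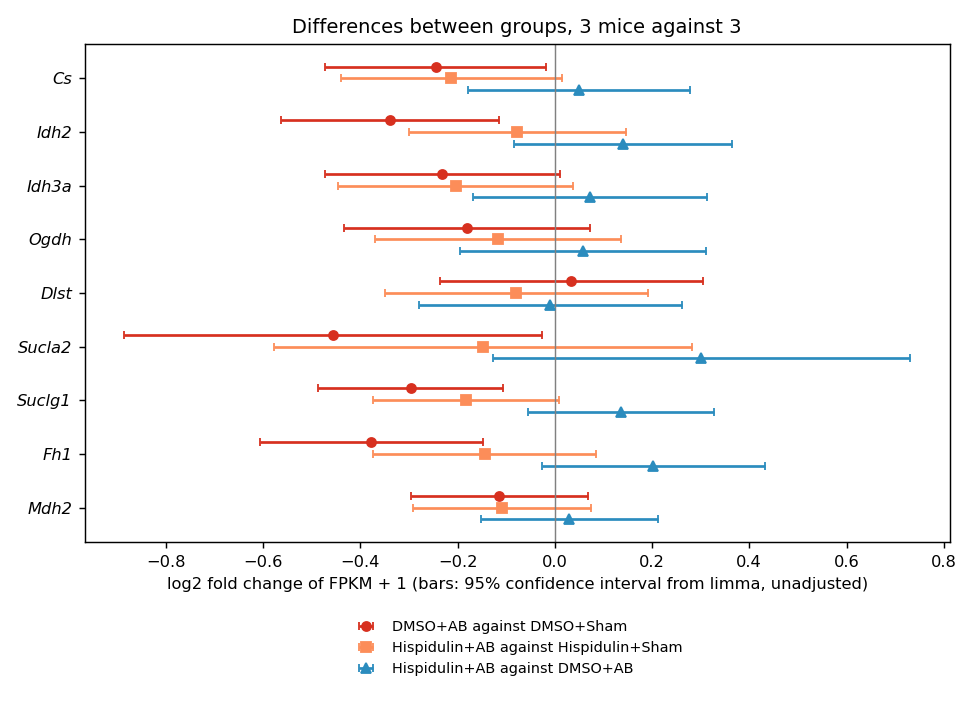
Log2 fold changes of FPKM + 1 for each enzyme (horizontal axis) in 3 comparisons of 3 mice against 3, with the unadjusted 95% confidence interval from limma. The intervals for AB in DMSO-treated mice exclude 0 for Cs, Idh2, Sucla2, Suclg1 and Fh1, and the intervals for hispidulin in banded mice include 0 for all 9.

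Whether hispidulin changed these transcripts in banded hearts was compared directly, in a comparison that shares the DMSO+AB mice with DMSO+AB against DMSO+Sham. Hispidulin+AB had a higher mean than DMSO+AB for 8 of the 9, all but Dlst (51.4% of genes tested were higher), with a median of 0.072 against 0.0047 over all genes tested. The study's own printed list of cycle genes, which was drawn up on these mice for the effect of hispidulin after AB, holds 4 of the 9 (Idh2, Ogdh, Sucla2 and Fh1), so their direction is not independent evidence here or in the comparison that shares the DMSO+AB mice. By limma 0 of 9 were called and 0 had an unadjusted p under 0.05, where 0% of all genes tested were called and 3.10% had such a p. The groups overlapped for all 9, and did not for 7.88% of genes tested. The largest changes were 0.30 for Sucla2 (95% confidence interval -0.13 to 0.73), 0.20 for Fh1 (-0.027 to 0.43), 0.14 for Idh2 (-0.083 to 0.36) and 0.14 for Suclg1 (-0.055 to 0.33). All of these intervals include 0, and no difference was detected. Leaving out 1 mouse moved Idh2 between 0.080 and 0.19 and Suclg1 between 0.089 and 0.21. The median of the 9 was 0.055 without Hispidulin+AB mouse 2 and 0.15 without DMSO+AB mouse 1. Without DMSO+AB mouse 3, Sucla2 differed by -0.0021 and Fh1 by 0.093, and without DMSO+AB mouse 2, Cs, Ogdh and Mdh2 were lower with hispidulin, at -0.038, -0.039 and -0.0070.

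As a share of all FPKM the 9 enzymes came to 0.888% ± 0.00626 (SD, n = 3) in Hispidulin+AB, 0.831% ± 0.0720 in DMSO+AB and 0.975% ± 0.0333 in Hispidulin+Sham. Every banded mouse, at 0.776% to 0.912%, lay below every sham mouse, at 0.936% to 1.04%. Idh2 and Mdh2, the most abundant parts of this sum, each overlapped between banded and sham mice. A share of all FPKM also depends on the other genes, and sums of other gene sets were not compared in this way. Among banded mice given DMSO the lowest value of all 12 mice fell to mouse 2 for Cs, Ogdh, Suclg1 and Mdh2 and to mouse 3 for Idh2, Idh3a, Sucla2 and Fh1. DMSO+Sham mouse 3 and Hispidulin+AB mouse 3 were each the lowest of their group for 8 of the 9. DMSO+AB mouse 1 and Hispidulin+AB mouse 2 were each the highest of their group for 7 of the 9. In sham mice, Hispidulin+Sham against DMSO+Sham gave 5 higher (47.6% of genes tested) and 4 lower means with a median of 0.017 (all genes -0.0072). Without DMSO+Sham mouse 3, 8 were lower and the median was -0.056, and leaving out any other single mouse gave 2 to 5 lower. There 0 were called by limma and 0 had an unadjusted p under 0.05, against 0% and 2.46% of genes tested. The interaction of hispidulin and AB also gave 0 calls and 0 unadjusted p under 0.05, where 2.48% of genes tested had one, with 8 of 9 above 0 (53.4% of genes tested), a median of 0.064 and an adjusted p of 1.00 for each enzyme. Without 1 mouse the interaction median ranged from 0.023 (DMSO+AB mouse 2) to 0.14 (DMSO+Sham mouse 3), with 0 to 4 of the 9 below 0.

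The numbers in the library names fall into 2 series, 1 with 5 mice and 1 with 6, and DMSO+Sham mouse 1 belongs to neither. What a series stands for is not given by the labels. In DMSO-treated mice the median change of the 9 enzymes after AB was -0.35 in the first series, 1 mouse against 1, and -0.11 in the second, 2 against 1. With mice of both treatments pooled it was -0.31 in the first, 2 banded against 3 sham mice, and -0.11 in the second, 4 against 2. Of the 9, 9 and 8 were lower. The sham mice of the first series were 1 with DMSO and 2 with hispidulin, so treatment was not balanced there. For Hispidulin+AB against DMSO+AB the medians were -0.0072 (1 mouse against 1) and 0.091 (2 against 2), so a higher median with hispidulin was found in 1 of the 2 series. Whether the size of the change differs between the series was not tested.

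A further 8 genes of the cycle were mostly lower as well. After AB with DMSO, 7 of the 8 had a lower mean and 3 fell (Sdha, Suclg2 and Idh3g), with a median of -0.32. Of all genes tested, 55.8% had a lower mean and 2.71% were called lower in that comparison, with a median of -0.035. Averaged over treatments all 8 were lower, the same 3 fell and the median was -0.25, beside -0.22 for the 9 enzymes and -0.026 over all genes, of which 55.8% were lower and 3.87% were called lower. Sdha, the flavoprotein subunit of succinate dehydrogenase, had 699.7, 644 and 659.8 FPKM in DMSO+Sham and 633, 637 and 603 in Hispidulin+Sham. After AB it had 527, 406 and 347 FPKM with DMSO and 526, 523 and 527 with hispidulin, all below the sham mice. The calls of Sdha, Idh3g and Suclg2 with DMSO held in 18, 8 and 5 of 23 alternatives, and leaving out single mice gave 0 to 4 calls among the 8 genes. Sdha fell by 0.67 with DMSO (SE 0.12, adjusted p = 0.015 by limma) and by 0.46 averaged (SE 0.088, adjusted p = 0.011), the latter call holding in 21 of 22 alternatives. Of its membrane-anchor partners, Sdhc changed by -0.27 averaged (adjusted p = 0.052 by limma) and Sdhd by -0.018 (adjusted p = 0.93). Without the 3 mice of high atrial markers 0 of these 8 genes were called, with Sdha at -0.46 (adjusted p = 0.13).

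**Figure D3:**
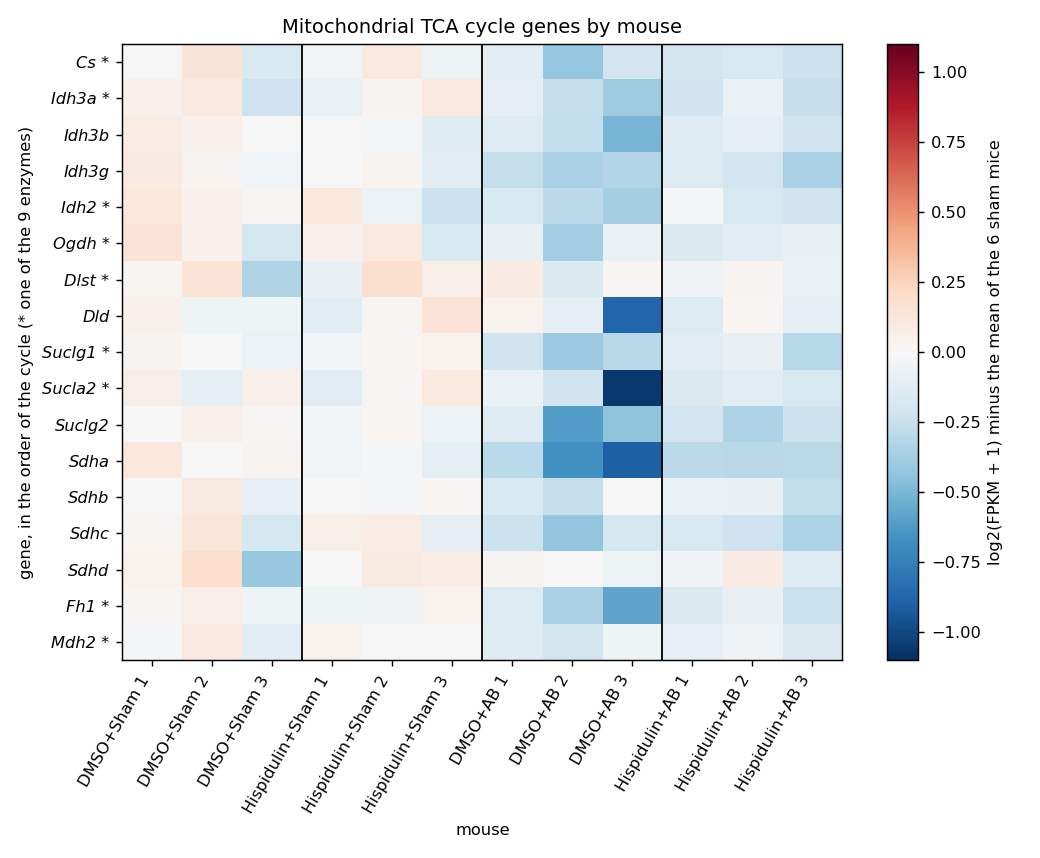
The 9 enzymes (asterisks) and the 8 further cycle genes (rows, in cycle order) in each mouse (columns), as log2(FPKM + 1) minus the mean of the 6 sham mice. Banded mice are mostly blue, Dlst and Sdhd stay near 0 in banded mice, and Sucla2, Dld and Sdha are darkest in DMSO+AB mouse 3.

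Genes that feed or leave the cycle were counted by lists. Of 9 anaplerotic enzymes, which refill the cycle, 4 fell after AB both with DMSO and in the averaged comparison, where 2.71% and 3.87% of all genes tested were called lower. They were Pcca and Pccb, the subunits of propionyl-CoA carboxylase, and Mmut, methylmalonyl-CoA mutase, which carry propionyl-CoA to succinyl-CoA, and Me3, a mitochondrial malic enzyme. Averaged over treatments they fell by 0.38, 0.27, 0.42 and 0.24 (limma, adjusted p = 0.018, 0.019, 0.031 and 0.045), and the list's median was -0.24, against -0.026 over all genes tested. Leaving out single mice gave 0 to 4 calls in this list in either comparison. Of 6 cytosolic counterparts and exchange enzymes all were lower, as were 55.8% of genes tested, and Got1, the cytosolic aspartate aminotransferase of the malate-aspartate shuttle, fell by 0.31 averaged (limma, adjusted p = 0.046), a call that held in 5 of 22 alternatives. The 10 genes of acetyl-CoA supply through pyruvate dehydrogenase gave 0 calls by limma in either comparison, with 3 lower at an unadjusted p under 0.05 averaged (12.9% of genes tested) and a median of -0.079. For 9 transcriptional regulators of mitochondrial genes, all means were lower averaged over treatments (55.8% of genes tested), with 0 calls by limma and a median of -0.16. Of them, 3 were lower at an unadjusted p under 0.05 (12.9% of genes tested), namely Ppara at -0.36, Esrrb at -0.30 and Gabpa at -0.24. The coactivator Ppargc1a changed by 0.0044 with DMSO (adjusted p = 0.99 by limma) and by -0.32 with hispidulin (adjusted p = 0.89), and the receptor Esrra by -0.065 (adjusted p = 0.85) and -0.23 (adjusted p = 0.85). Without the 3 mice of high atrial markers 0 genes of these 4 lists were called in either comparison, with averaged changes of -0.40 for Pcca, -0.25 for Pccb, -0.42 for Mmut and -0.27 for Me3.

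**Figure D4:**
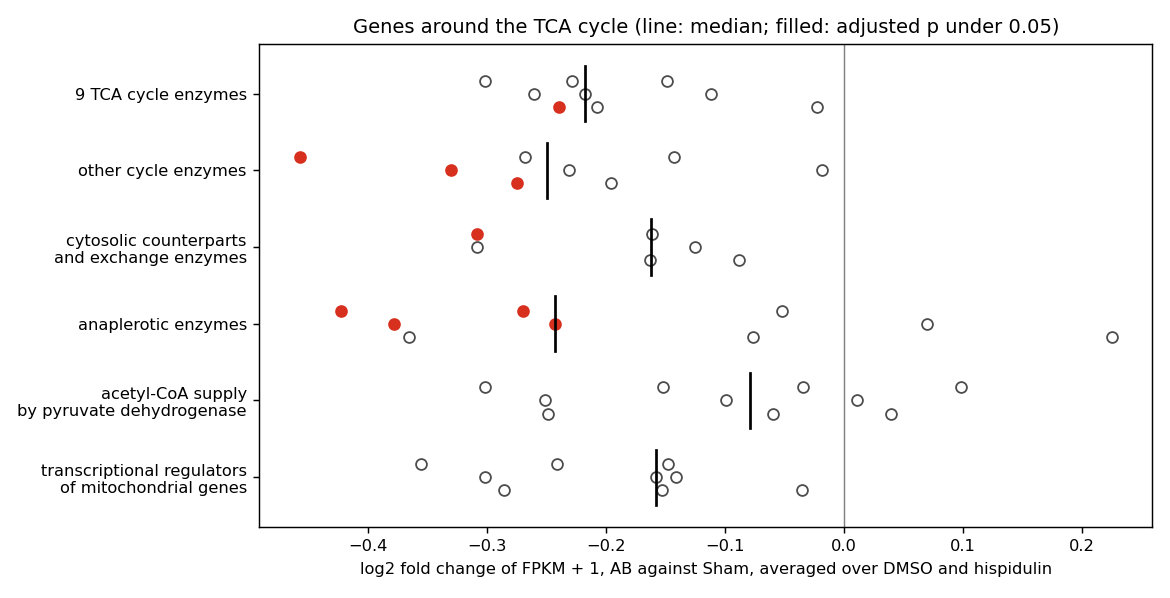
Log2 fold change of FPKM + 1 for AB against Sham averaged over treatments (horizontal axis), 1 point per gene, by list, with the list median as a line and genes called at an adjusted p under 0.05 filled. Medians lie between -0.25 for the other cycle enzymes and -0.079 for pyruvate dehydrogenase genes.

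Ratios between partner enzymes did not differ detectably between banded and sham mice. Within mice, 5 ratios of FPKM were compared between AB and Sham with an exact two-sided permutation test that kept mice within their treatment, with 400 arrangements and a smallest possible p of 0.005. The ratio of Ogdh to Dlst was 2.57 on average in sham and 2.35 in banded mice, a log2 difference of -0.13 (exact p = 0.12, adjusted over the 5 ratios 0.6). Idh2 to Idh3a was 4.94 in both (exact p = 0.935), and Sucla2 to Suclg1 was 0.999 and 0.976 (exact p = 0.915) with a low of 0.589 in DMSO+AB mouse 3. The ratios of Suclg2 to Sucla2 and of cytosolic Mdh1 to Mdh2 gave exact p of 0.86 and 0.25. A difference was not shown for any of the 5, which does not show that the ratios stayed equal.

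Over the 12 libraries, which include the differences between groups, Fh1, Idh3a and Suclg1 followed the other 8 members most closely (Pearson r of 0.91, 0.91 and 0.89 with the mean of the others) and Dlst least (0.37). The genes outside the list whose log2(FPKM + 1) was most like the mean of the 9 were Ybx2 (r = 0.98), Cmtm8 (0.96), Smco1 (0.96), Ghr (0.96), Kcnv2 (0.96), Rbfox1 (0.96), Kcnj3 (0.96), Cpeb3 (0.95), Hadh (0.95) and Lclat1 (0.95). Hadh is a dehydrogenase of fatty acid oxidation, Ghr the growth hormone receptor, and Kcnv2 and Kcnj3 encode potassium channel subunits. In DMSO+AB against DMSO+Sham all 10 were lower, from -1.13 for Kcnv2 to -0.40 for Lclat1. They were picked for following a mean that holds the difference between groups, so this is a description with no test.

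Markers of other cells moved with banding in part. All 8 fibroblast markers were higher in DMSO+AB than in DMSO+Sham, as were 44.2% of genes tested, and 2 rose where 2.5% of genes tested were called higher (Col1a1 and Col1a2, by 1.86 and 1.60, limma adjusted p = 0.041 and 0.046), with sums of 374 to 488 FPKM in DMSO+Sham and 424 to 859.5 in DMSO+AB. Cardiomyocyte marker sums overlapped between those groups, at 39526 to 57456 and 47073 to 52002 FPKM, and 7 of the 10 genes were lower (55.8% of genes tested), with a median of -0.20 beside -0.24 for the 9 enzymes. Of the 10, Ryr2 and Pln fell, by 0.59 and 0.62 (limma, adjusted p = 0.036 and 0.040), where 2.71% of genes tested were called lower. Tnni3 at -0.34, Myh6 at -0.38, Mybpc3 at 0.56 and Actc1 at 0.78 did not pass (adjusted p between 0.070 and 0.23 by limma), and Actc1 had 2741 FPKM in DMSO+Sham mouse 3 against 7909 to 11562 in the other 5 mice of those groups. Averaged over treatments Ryr2 and Pln were called lower, and Mybpc3 (0.47), the fibroblast genes Col1a1 (1.42), Col1a2 (1.103) and Col3a1 (1.58) and the smooth muscle gene Tagln (0.49) were called higher (limma, adjusted p between 0.024 and 0.043), where 3.52% of genes tested were called higher. Summed endothelial markers were 266 to 282 FPKM in DMSO+Sham and 304 to 330.04 in DMSO+AB, which did not overlap. By limma 0 of 5 were called, where 5.21% of genes tested were, and 0 had an unadjusted p under 0.05. At that p, 1079 of the 11664 genes tested were higher and 1299 lower. Macrophage, smooth muscle and blood sums overlapped between those groups. All 4 blood markers had a higher mean in Hispidulin+Sham than in DMSO+Sham (median 0.88), as did 47.6% of genes tested. Their sums were 4084, 2734 and 8324 FPKM against 2129 to 3520. The 8324 belonged to Hispidulin+Sham mouse 3, which also had the highest atrial markers. All 4 had a lower mean in Hispidulin+AB than in Hispidulin+Sham (median -0.84, sums of 1790.2 to 3925 FPKM), as did 54.9% of genes tested. By limma 0 were called in either, with 2 and 0 at an unadjusted p under 0.05, against 2.46% and 7.26% of genes tested. White and brown fat markers summed to at most 3.69 FPKM in any mouse. The part of these cells in the lower enzyme transcripts was not tested.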

How the data were processed

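Left ventricular RNA of 12 mice, 1 library each and 3 per group, was sequenced as single-end reads of 50 bases on a BGISEQ-500. The authors deposited FPKM for 18079 genes by NCBI Gene identifier, rounded to 0.01. The submitters' processing notes name HISAT2 2.0.4, Bowtie2 2.2.5, RSEM 1.2.12 and DESeq2 1.4.5 without giving their roles, and the genome build and annotation are not given in the sources used here. FPKM of a library summed to 535235 to 567027. Steps between low values did not recover reads (of 20872 ratios, 18.1% came within 0.1 of a whole one, where an even spread gives 20%), so depth is unknown and no counting error is given. Symbols came from the RefSeq gene table for 17947 genes (99.3%).

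Sample labels gave the groups. For sequencing, the study's methods name no test but give criteria (FDR up to 0.001, log2 ratio from 1 up), which were an alternative. FPKM with 1 added were log2-transformed, and the 11664 genes that reached an FPKM of 1 in 3 or more libraries were fitted in R 4.3.3 with limma 3.58.1 (1 mean per group, moderated by eBayes with trend, Benjamini-Hochberg, two-sided). The tests were run on simulated data first. Ratios and motifs were computed with Python 3.11.15. Nothing in the labels says more than that the libraries are separate samples of a group. The limma p-values rest on the spread between mice within groups, pooled over the 4 groups of 3 and moderated across genes.

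The enzymes and gene lists were chosen with earlier results of these data known. All 9 enzymes are named. Of the other cycle genes, 1 and a ratio with it are not reported here. Genes of the other pathway lists are named, up to 6 a list by size of change, when called in DMSO+AB against DMSO+Sham or in the averaged comparison, or as partners in a complex. Ppargc1a, Esrra, Ppara, Esrrb, Gabpa, Sdhb, Sdhc, Sdhd, Ogdhl, Nppa, Myh7 and the marker genes other than those of atrial cells were named after their values were seen.

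Replicate numbers in the labels were tried as a block. Deviations of same-numbered libraries from their group means correlated by 0.126 to 0.330 for Hispidulin+Sham against DMSO+Sham. For Hispidulin+AB against Hispidulin+Sham the range was 0.148 to 0.228. It was -0.198 to -0.0239 in DMSO+AB against DMSO+Sham and -0.183 to 0.300 in Hispidulin+AB against DMSO+AB. Whether equal numbers pair the samples is not given by the labels, and these correlations do not settle it. If they do, the main fit leaves that pairing out. Other alternatives were 0.1 added in place of 1, quantile normalization, median-of-ratios scaling, a filter at an FPKM of 5 or none, eBayes without trend, library weights, the number series as a covariate, only the libraries compared, and each library left out.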

Additional observations from a re-analysis of the deposited data

How the results depend on the processing

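For DMSO+AB against DMSO+Sham, 0 of the 9 enzymes were called, 1 under quantile normalization, 2 with library weights (median -0.35), 1 with the replicate block (Idh2, limma adjusted p = 0.035), and 0 to 2 when a library was left out (2, Suclg1 and Fh1, without DMSO+AB mouse 1). In the averaged comparison 1 was called, 2 with an FPKM of at least 5 (Fh1 added), 3 under quantile normalization, 6 with library weights, 1 with the replicate block (Idh2 at an adjusted p of 0.047 in place of Suclg1 at 0.051), and 0 to 3 when a library was left out (3 without DMSO+Sham mouse 3 or DMSO+AB mouse 1). It was 0 under median-of-ratios scaling, without the trend, with the number series as a covariate, under the study's criteria and without the 3 libraries of high atrial markers. With those libraries left out, 0 enzymes were called in any comparison. The replicate block changed no other call of an enzyme.

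Dlst turned sign most often. With DMSO it was -0.063 with library weights and -0.10 to 0.14 without a library. Averaged it was 0.018 with the number series, 0.026 without the 3 libraries and -0.092 to 0.028 without a library. For Hispidulin+AB against DMSO+AB it was 0.030 under quantile normalization, 0.029 with library weights and -0.082 to 0.045 without a library. In that comparison leaving out a library moved Cs between -0.038 and 0.12, Ogdh between -0.039 and 0.11, Mdh2 between -0.0070 and 0.071 and Sucla2 between -0.0021 and 0.49, and without the 3 libraries Cs was -0.021 and Ogdh -0.057. With hispidulin, AB against Sham for Idh2 ranged from -0.17 to 0.012 without a library. The interaction median was 0.19 with library weights. Log2 ratios ranged without a library from -0.16 to 0.041 for Suclg2 to Sucla2, -0.059 to 0.058 for Idh2 to Idh3a and -0.11 to 0.076 for Sucla2 to Suclg1. The causes were not tested, beyond the smaller number of libraries in fits that leave some out.

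Over all genes, calls over the alternatives ranged from 0 to 1423 (608 as reported) for DMSO+AB against DMSO+Sham, from 9 to 2535 (862 as reported) averaged, from 0 to 20 (without DMSO+AB mouse 1) for Hispidulin+AB against DMSO+AB, from 0 to 209 for Hispidulin+AB against Hispidulin+Sham, where the replicate block gave 17 calls against 0, and from 0 to 3 for the interaction. Depth is unknown, and the averaged 95% confidence intervals of Ogdh, Dlst, Sucla2 and Mdh2 included 0.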
